A study of Mus musculus with 16 samples.

Results

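The 78 protein-coding mouse genes named Mrpl or Mrps followed by a number, which encode proteins of the mitochondrial ribosome, were followed in repetitively activated TCF1+CD8+ T cells with and without exposure to prostaglandin E2 (PGE2). They were chosen by gene name and gene type, with no measured value in the rule, though earlier results of these data were known. The count table held 54532 genes, of which 22046 are protein-coding. Of the 78, 51 belong to the large subunit of the ribosome, 26 to the small subunit, and 1, Mrps36, is now placed in the alpha-ketoglutarate dehydrogenase complex. A homologue in bacterial ribosomes is known for 46. Another 5 rows whose names fit are processed pseudogenes, and they took 0.0348% to 0.0759% as many counts as the members.

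Mitochondria carry their own ribosomes, which translate the few membrane proteins of the respiratory chain that mitochondrial DNA encodes. The RNA of these ribosomes is made inside the organelle, but every protein in them is encoded in the nucleus, translated in the cytosol and imported. A T cell that is activated through its antigen receptor enlarges and makes more mitochondrial protein before it divides, and PGE2 raises cyclic AMP in T cells through the receptors EP2 and EP4.

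The study asked how PGE2 alters gene expression in stem-like CD8+ T cells that meet antigen receptor signals and IL-2. Naive CD8+ T cells from spleens of C57BL/6J mice were grown for 4 days in culture, where repeated activation yielded antigen-experienced cells that kept TCF1. The cells were left untreated or given PGE2 at 100 ng/ml for 1 h, then kept for 4 h in IL-2 at 85 U/ml, either alone (called unstimulated) or together with anti-CD3/CD28 beads, 1 for each cell (called stimulated). This gives 4 groups of 4 replicates, and all 16 samples received IL-2. The cells were differentiated in culture and not taken from a tumour. What samples with the same replicate number share is not stated, and neither are separate mice or cultures, so p-values measure the spread between these samples, which may be technical.

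Each sample held 22678254 to 42950763 counts. The 5 CD8+ T cell markers Cd3e, Cd3d, Cd8a, Cd8b1 and Tcf7 summed to 2222 to 4113 CPM (counts scaled to library size) and were lower in the stimulated groups (2222 to 2645) than in the unstimulated ones (2750 to 4113). Markers of myeloid, NK, erythroid and CD4+ T cells were near 0 in all 16 samples, with at most 0.214 CPM for Lyz2, Csf1r and Cd14 of myeloid cells, 0.0999 for Ncr1 and Klrb1c of NK cells, 0.423 for Hba-a1 and Hbb-bs of erythroid cells and 1.87 for Cd4. Levels in bulk RNA do not tell fewer cells of a type from less RNA per cell.

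At rest, that is in unstimulated untreated cells, the level per gene length was moderate and uneven. On the deposited FPKM scale, which divides by gene length and so allows genes to be compared, 77 members had a mean of 3.28 to 68.1 with a median of 14.1, against a median of 4.90 over all 14505 genes tested. The highest were Mrpl54 (68.1 ± 3.12 FPKM, SD, n = 4), Mrpl34 (61.5 ± 5.89), Mrps21 (52.9 ± 4.34), Mrpl18 (45.7 ± 0.973) and Mrps23 (44.5 ± 3.01). Single samples of Mrpl54 and Mrpl34 overlapped, as did those of Mrpl34 and Mrps21 and of Mrpl18 and Mrps23, so these neighbours in the order did not differ beyond their spread, while every sample of Mrps21 lay above every sample of Mrpl18.

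The lowest members with counts were Mrps10 (3.28 ± 0.249 FPKM), Mrps25 (3.31 ± 0.112), Mrpl17 (4.09 ± 0.271) and Mrpl33 (4.88 ± 0.301). Mrpl53 had 0 counts in each of the 16 samples and was not tested. In the GENCODE M21 annotation 88.0% of its exon bases also belong to the gene Gm42688, so reads from them need not have been assigned to it. Mrps25 shares 69.8% of its exon bases with Nr2c2 on the other strand, and its level is uncertain for that reason. The strand setting of the counting is not given in the sources used here, and 33 of the 78 members share some exon bases with another gene, 22 of them with a partner whose level is at least 10% of their own.

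The summed level of the members followed both treatments. It was 3301, 3157, 3194 and 3232 CPM in unstimulated untreated replicates 1 to 4 and 2661, 2718, 2690 and 2769 CPM in unstimulated cells with PGE2. All 4 PGE2 samples were thus below all 4 untreated ones, with means of 2709 ± 46.0 and 3221 ± 61.3 CPM. In stimulated cells it was 5096, 4604, 4555 and 4233 CPM without PGE2 and 4337, 4215, 3800 and 3661 CPM with PGE2. These last 2 groups overlapped (4622 ± 356 and 4003 ± 324 CPM). Within replicate numbers the PGE2 sample was the lower one in 4 of 4 pairs, by 8.44% to 16.6%, and in unstimulated cells by 13.9% to 19.4%.

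**Figure D1:**
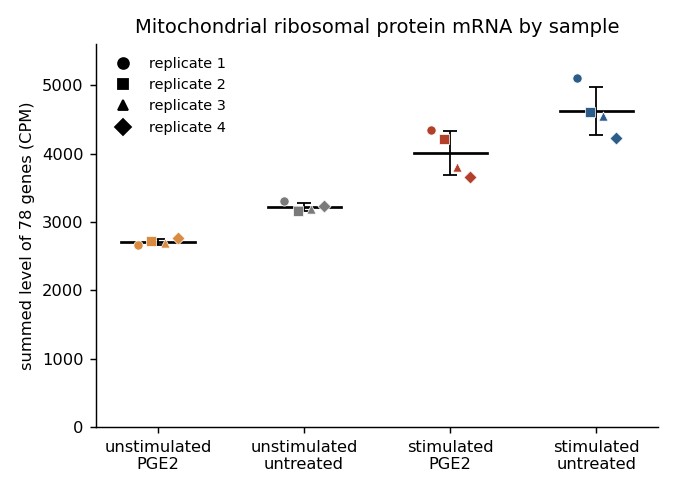
Summed level of the 78 mitochondrial ribosomal protein genes in CPM (y axis) in each sample of the 4 groups (x axis). Symbols mark replicate numbers, bars the mean and whiskers the SD (n = 4). The means increase from 2709 CPM in unstimulated cells with PGE2 over 3221, 4003 and 4622 CPM, and only the 2 stimulated groups overlap.

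Group means of single members mostly kept this order, which is given as a description. For 57 of the 77 members tested (74.0%) the mean level increased from unstimulated cells with PGE2 over unstimulated untreated and stimulated PGE2-treated cells to stimulated untreated cells, an order found in 26.3% of the 13512 genes tested in all 4 comparisons. Unstimulated cells with PGE2 held the lowest mean of 63 members (36.8% of all genes), and stimulated untreated cells the highest mean of 64 (36.6% of all genes).

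PGE2 without bead stimulation lowered many of these mRNAs by a modest amount. With the edgeR quasi-likelihood test and an adjusted p below 0.05, 45 of 77 members were lower and 0 were higher after PGE2, where 15.5% and 12.9% of the 14505 genes tested passed in these directions. At an unadjusted p below 0.05 there were 57 lower and 1 higher (20.5% and 18.4% of genes). The difference was below 0 in 68 members, against 50.1% of genes. The median log2 fold change was −0.24 for the members and −0.0010 for all genes, which is 0.849-fold for the median member. In 54 members every PGE2 sample lay below every untreated sample, which held for 16.8% of all genes. With replicate numbers as a block, 58 members were lower and 2 higher, against 24.2% and 23.6% of genes. The labels give no pairing, and the block rests on same-numbered samples that correlated by 0.137 to 0.444.

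Mrps18b, which encodes a protein of the small subunit, fell most. Its level was 15.3, 16.3, 14.8 and 17.8 CPM in untreated replicates 1 to 4 and 6.82, 7.49, 7.25 and 8.60 CPM with PGE2. The highest PGE2 sample was therefore well below the lowest untreated one. The log2 fold change was −1.07 ± 0.10 (SE; edgeR adjusted p = 3.29e-05), and Mrps18b was the only member that also passed a fold change of 2 (1.92% of genes). The gene (ENSMUSG00000024436) lies on the minus strand at chr17:35910379-35916389 of GRCm38, and 30.5% of its exon bases are shared with the antisense gene Gm16279, whose mean level was 3.07 CPM against 25.95 CPM over all samples.

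Next came 3 proteins of the large subunit that have bacterial homologues. Mrpl17, whose product lies near the exit of the peptide tunnel, had 32.7, 35.1, 30.1 and 33.0 CPM untreated and 18.7, 19.8, 19.3 and 20.2 CPM with PGE2, a log2 fold change of −0.72 ± 0.07 (edgeR adjusted p = 2.97e-05). Mrpl36 (43.7 ± 2.77 to 26.1 ± 1.78 CPM) fell by 0.72 on the log2 scale and Mrpl19 (39.8 ± 1.54 to 23.9 ± 0.962 CPM) by 0.71. In each of these genes the groups were apart. Of the exon bases of Mrpl19, 36% are shared with Gcfc2 on the other strand, which had 12.6 CPM on average against 54.2. Mrps28 of the small subunit went from 16.3, 14.7, 15.99 and 15.4 to 10.6, 8.45, 9.42 and 11.6 CPM without overlap, a log2 fold change of −0.62 ± 0.10 (edgeR adjusted p = 0.00107).

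Of 5 members with a known role of their own, 1 passed the test. Mrpl12, a stalk protein that also binds the mitochondrial RNA polymerase, had 48.7, 39.9, 43.9 and 40.4 CPM untreated and 29.4, 28.4, 24.6 and 29.1 CPM with PGE2. It fell by 0.61 on the log2 scale (SE 0.08, edgeR adjusted p = 0.00019). Mrpl10, which anchors the stalk, had a log2 difference of 0.01 ± 0.06, and Mrpl45, which helps to attach the ribosome to the inner membrane, 0.01 ± 0.11. Mrpl58, a hydrolase that releases peptides from stalled ribosomes, had 0.01 ± 0.07, and Mrps36 −0.07 ± 0.08. None of these 4 passed the test.

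The Mrps18 genes, 3 paralogues whose products occupy different places in the ribosome, were read side by side. Beside the fall of Mrps18b, Mrps18a, whose protein sits in the large subunit despite its name, had a log2 difference of −0.17 ± 0.06 (edgeR adjusted p = 0.0771), and Mrps18c one of −0.12 ± 0.08 (adjusted p = 0.256). With replicate numbers as a block Mrps18a passed (−0.17, adjusted p = 0.0192). The highest positive value belonged to Mrpl14, whose product lies at the interface between the subunits, with 30.6, 23.7, 33.3 and 28.1 CPM untreated and 32.0, 34.5, 35.7 and 33.2 CPM with PGE2. Its log2 difference was 0.25 ± 0.10 (edgeR adjusted p = 0.0859) and passed with the block (0.26, adjusted p = 0.00567), as did Mrpl4 (0.11, adjusted p = 0.0380). Tmem63b, on the other strand, shares 11.2% of the exon bases of Mrpl14 at a similar mean level (24.8 and 27.6 CPM).

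By subunit, 32 of 50 tested members of the large and 13 of 26 of the small subunit were lower, with medians of −0.24 and −0.23. Of the members with a bacterial homologue 30 of 46 were lower (median −0.29). Among those without one, which include Mrps36, 15 of 31 were lower (median −0.20). The difference between these classes was not tested. The falls thus reached both subunits and both classes.

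**Figure D2:**
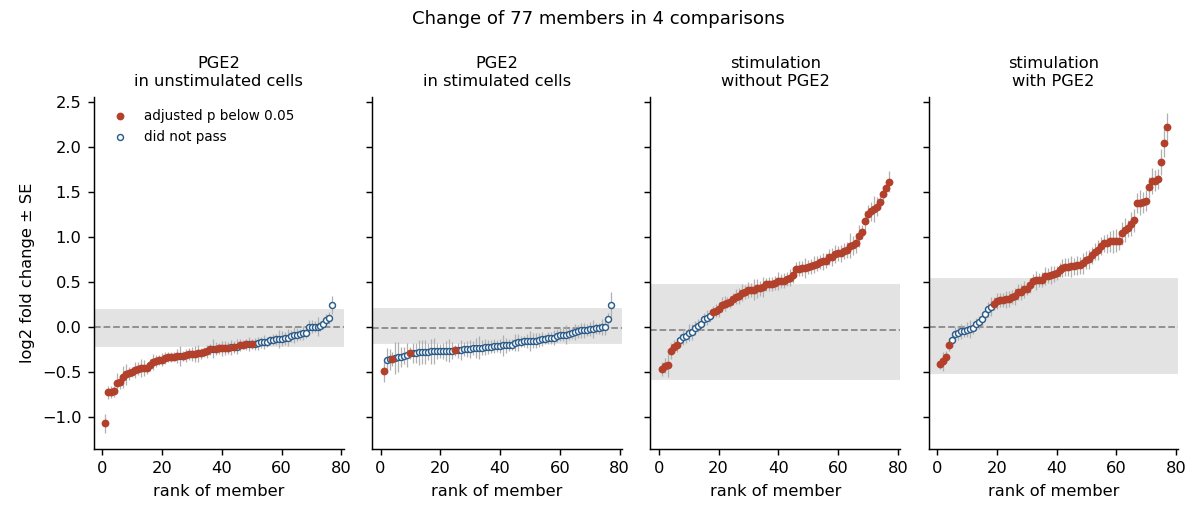
Log2 fold change (y axis, whiskers SE) of the 77 tested members, ranked from lowest to highest (x axis), in 4 comparisons. Filled points passed an adjusted p of 0.05, the grey band spans the middle 50% of all genes tested and the dashed line is their median. PGE2 values lie mostly below 0, with 45 of 77 passing as lower in unstimulated and 4 in stimulated cells, and stimulation values mostly above 0, with 60 and 59 passing as higher.

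In stimulated cells the PGE2-treated samples differed in the same direction for most members, but few passed the test. Lower calls numbered 4 and higher calls 0 of 77, against 3.8% and 6.04% of the 13922 genes tested, so that the share of lower calls (5.19%) was near the background. At an unadjusted p below 0.05, 35 members were lower and 0 higher (12.7% and 14.3% of genes). DESeq2 called 11 members lower, and 7.01% of all genes. Every PGE2 sample lay below every untreated one in 18 members, against 8.32% of genes. The log2 difference was below 0 in 73 of 77 members and in 50.8% of all genes, with medians of −0.21 and −0.0061.

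Same-numbered samples deviated together in this comparison, although only 3 of 4 numbers correlated best with themselves (0.190 for number 2, against 0.212 with another number). The fit with the replicate number as a block gave 50 lower members and 1 higher, Mrpl14, against 20.7% and 19.1% of genes. In 56 members (72.7%) the PGE2 sample was the lower one in all 4 same-numbered pairs, compared with 29% of all genes. Without the block the count of lower calls hung on single libraries. It was 0 without untreated replicate 1, untreated replicate 2 or PGE2 replicate 3, and 1 without untreated replicate 3 or PGE2 replicate 4. It was 2 without PGE2 replicate 2, 6 without untreated replicate 4 and 10 without PGE2 replicate 1. The share of all genes called lower also moved, from 1.62% without PGE2 replicate 3 to 4.72% without PGE2 replicate 1.

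The 4 members that passed as lower were Mrps28, Mrpl35, Mrpl42 and Mrps15. With 1 replicate left out, Mrpl35 passed in 5 of 8 fits, and Mrps28, Mrpl42 and Mrps15 in 2 of 8 each. Mrps28 had 39.0, 32.1, 29.9 and 25.8 CPM without and 26.5, 21.97, 21.6 and 20.2 CPM with PGE2. The groups overlapped by 1 sample, and the log2 fold change was −0.48 ± 0.13 (edgeR adjusted p = 0.0411). Mrpl42, a mitochondria-specific protein, went from 59.7, 58.7, 57.8 and 52.9 to 49.2, 45.3, 47.7 and 44.6 CPM without overlap (−0.29 ± 0.06, edgeR adjusted p = 0.0220). Mrpl35 (65.0 ± 4.58 to 50.7 ± 4.39 CPM) fell by 0.35 and Mrps15 (74.9 ± 3.59 to 62.4 ± 3.07 CPM) by 0.26 on the log2 scale, also without overlap. In unstimulated cells PGE2 had lowered these genes too, by 0.62 for Mrps28, 0.38 for Mrpl35, 0.55 for Mrpl42 and 0.38 for Mrps15 on the log2 scale.

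Mrps18b, Mrpl12 and Mrps18a did not pass here without the block and passed with it. Mrps18b had 45.5, 49.3, 44.6 and 41.6 CPM without and 42.3, 38.0, 32.9 and 26.6 CPM with PGE2, a log2 difference of −0.36 ± 0.13 that did not pass without the block (edgeR adjusted p = 0.103) and passed with it (−0.38, adjusted p = 0.00352). Mrpl12 showed −0.34 ± 0.17 (adjusted p = 0.229 with edgeR, 0.000301 with the block) and Mrps18a −0.22 ± 0.09 (0.135, and 0.00467 with the block). Mrps36, Mrps18c, Mrpl10, Mrpl45 and Mrpl58 had log2 differences between −0.14 (Mrps36) and 0.10 (Mrpl58), and none of them passed.

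The test of the difference between both PGE2 effects, the interaction over all 16 samples, called 0 members higher and 0 lower (0.517% and 0.232% of 15096 genes). At an unadjusted p below 0.05 it was 4 higher and 1 lower, near the background of 6.64% and 2.73%. DESeq2 called 1 member higher, and 1.03% of all genes. The smallest p-values were those of Mrps18b, with a difference of 0.72 ± 0.17 on the log2 scale (edgeR adjusted p = 0.0622), Mrpl36 (0.51 ± 0.14, adjusted p = 0.119) and Mrpl19 (0.47 ± 0.13, adjusted p = 0.137). A positive value means a smaller reduction in stimulated cells. With replicate numbers as a block these 3 passed as higher (edgeR adjusted p of 0.0339 for Mrps18b, 0.0153 for Mrpl36 and 0.0267 for Mrpl19), as did 1.79% of all genes. Between unstimulated and stimulated cells with PGE2, same-numbered samples correlated by only 0.0439 to 0.281, so the basis for the block is weaker in this fit. Without stimulated PGE2 replicate 4 there were 3 higher calls, and without unstimulated PGE2 replicate 4 there was 1.

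Both PGE2 effects, which rest on separate samples, ranked the members alike. Across the 77 members Pearson's r of the log2 differences was 0.752, compared with 0.705 across 13571 genes tested in both states; members are not independent replicates, and the r is a description. The sign was the same in 70 members (90.9%, against 78.5% of genes), and 67 lay below 0 in both states.

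**Figure D3:**
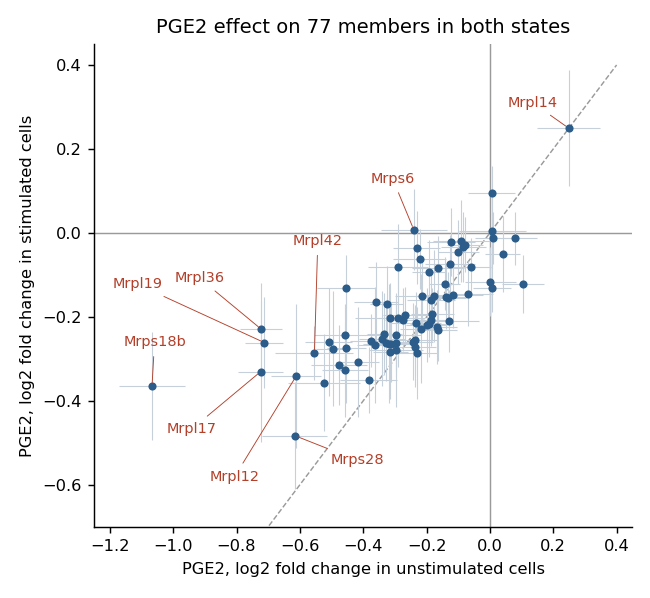
PGE2 effect on each of 77 members as log2 fold change in unstimulated (x axis) and stimulated cells (y axis), with whiskers for the SE and a dashed line of equal effects. Most points (67) lie below 0 on both axes, Mrps18b lies farthest left at −1.07 and −0.36, and Mrpl14 lies above 0 on both.

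Bead stimulation raised most of the members, with or without PGE2. Without PGE2, 60 of 77 members were higher and 6 lower after 4 h, against 31.7% and 34.8% of the 14205 genes tested. With PGE2, 59 were higher and 4 lower, against 32.5% and 31.7% of 14507 genes. Median log2 fold changes were 0.49 without and 0.59 with PGE2, while those of all genes were −0.031 and 0.0022. The 59 members higher with PGE2 were all higher without it too, 3 members were lower in both, and 10 were called in neither. In 59 members every stimulated untreated sample lay above every unstimulated untreated one (30.4% of genes), and with PGE2 this held for 61 (30.1%). With the block, stimulation without PGE2 gave 60 higher and 7 lower members (34.8% and 37.5% of genes). A rise of at least 2-fold was seen in 11 members without and 16 with PGE2 (11.5% and 12.7% of genes), and all 11 were among the 16.

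Mrpl17 had the largest rise without PGE2 and Mrps18b the largest with PGE2. Mrpl17 reached 121, 104, 99.7 and 79.1 CPM in stimulated untreated replicates 1 to 4, so that its lowest stimulated sample was above its highest unstimulated one (35.1 CPM). The log2 fold change was 1.62 ± 0.12 without PGE2 (edgeR adjusted p = 1.62e-07) and 2.05 ± 0.16 with it (2.26e-06). Mrps18b rose from 16.1 ± 1.33 to 45.3 ± 3.15 CPM without PGE2 (log2 fold change 1.48 ± 0.09) and from 7.54 ± 0.762 to 35.0 ± 6.80 CPM with it (2.23 ± 0.15). The gene of Mrpl17 (ENSMUSG00000030879) lies at chr7:105803206-105811099 on the minus strand and shares no exon base with another gene.

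Small subunit proteins with bacterial homologues made up the rest of the leading 5. Mrps2 had 26.6, 27.8, 27.7 and 29.7 CPM unstimulated and 89.4, 85.7, 79.2 and 74.2 CPM stimulated, a log2 fold change of 1.54 ± 0.08 (edgeR adjusted p = 2.37e-08). Mrps10 rose by 1.39 ± 0.08 to 73.8 ± 1.85 CPM and Mrps6 by 1.34 ± 0.10 to 42.3 ± 5.01 CPM. With PGE2 these 3 rose by 1.83, 1.65 and 1.63 on the log2 scale. Mrps6 shares 10.4% of its exon bases with Slc5a3 on the same strand, whose mean level was the higher of the pair (37.9 and 28.7 CPM), so reads of these genes may have been mixed. The level of Mrps6 in stimulated cells was 42.3 CPM with and without PGE2.

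**Figure D4:**
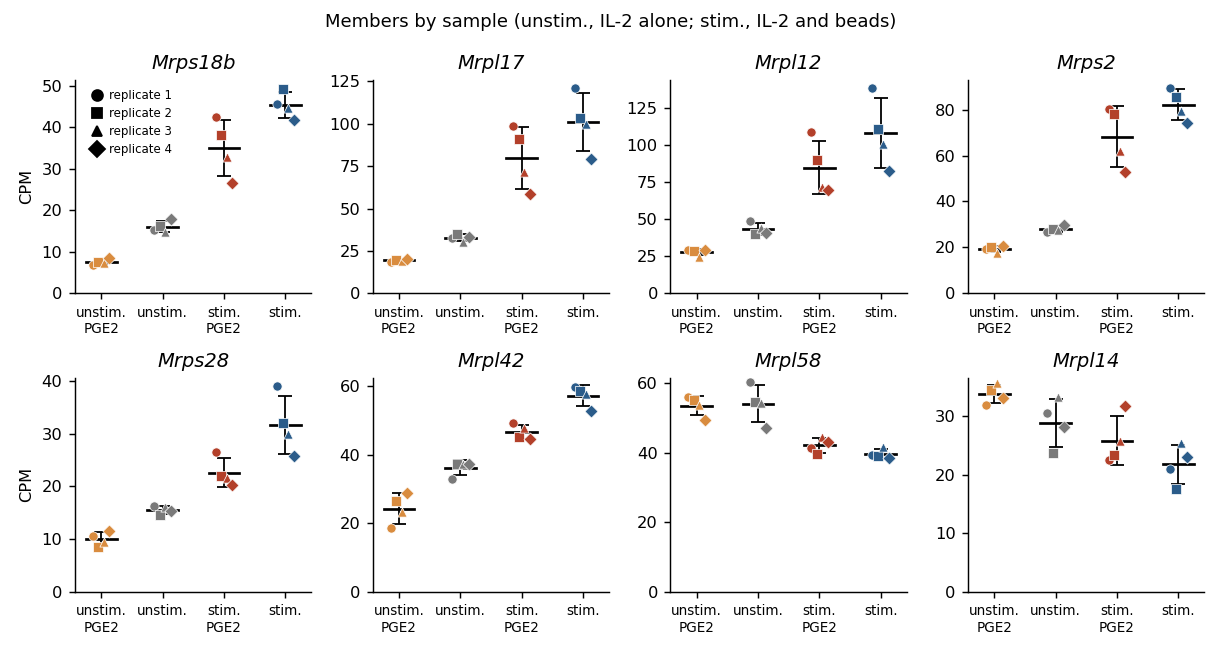
Level in CPM (y axis, from 0) of 8 members in each sample of the 4 groups (x axis), with symbols for replicate numbers, bars for means and whiskers for the SD (n = 4). Mrps18b, Mrpl17, Mrpl12, Mrps2, Mrps28 and Mrpl42 are lowest in unstimulated cells with PGE2 and highest in stimulated untreated cells, whereas Mrpl58 and Mrpl14 are lower after stimulation.

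Mrpl12 rose with stimulation from 43.2 ± 4.08 to 108 ± 23.3 CPM, and its 4 stimulated values of 138, 111, 100 and 82.2 CPM were widely spread but all above the unstimulated ones. The log2 fold change was 1.31 ± 0.14 (edgeR adjusted p = 3.78e-06), and 1.62 ± 0.14 with PGE2. Mrps18a rose by 0.70 ± 0.08 and 0.69 ± 0.09 on the log2 scale without and with PGE2, and Mrps36 by 0.43 ± 0.09 and 0.40 ± 0.09. Mrps18c (−0.05 ± 0.09 and 0.09 ± 0.08), Mrpl10 (0.13 ± 0.07 and 0.15 ± 0.07) and Mrpl45 (−0.06 ± 0.09 and −0.02 ± 0.10) did not pass in either comparison.

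The falls with stimulation were smaller than the rises. Mrpl58 had 60.4, 54.6, 54.4 and 47.2 CPM unstimulated and 39.4, 39.2, 41.6 and 38.4 CPM stimulated, without overlap, and a log2 fold change of −0.46 ± 0.08 (edgeR adjusted p = 0.000233). Mrpl9 (116 ± 9.86 to 87.0 ± 7.37 CPM) fell by 0.43 and Mrpl14 (28.9 ± 4.08 to 21.8 ± 3.31 CPM) by 0.42. With PGE2 the log2 fold changes of Mrpl58, Mrpl9 and Mrpl14 were −0.33 ± 0.07, −0.41 ± 0.06 and −0.38 ± 0.11, and all 3 passed.

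Mrpl34 and Mrpl18, both among the 5 highest at rest, fell by 0.26 and 0.21 on the log2 scale without PGE2 and did not pass with it (−0.03 ± 0.08 and −0.14 ± 0.08). Mrpl18, known for binding ribosomal RNA, shares 10.1% of its exon bases with the more abundant Tcp1 on the other strand (342 and 57.0 CPM), and its call was lost in 2 of 8 fits that left out a replicate. Mrpl4, which lines the peptide tunnel, passed as lower only with PGE2 (−0.19 ± 0.07, edgeR adjusted p = 0.0397) and did so in 4 of 8 such fits. Of the members of the small subunit 21 of 26 were higher and 0 lower in both comparisons, while the large subunit had 38 higher and 6 lower of 50 without PGE2 and 37 and 4 with it.

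When upper-quartile factors replaced TMM, the median of all genes moved to −0.13 on the log2 scale in both stimulation comparisons. The median of the members was then 0.39 without and 0.46 with PGE2, which is 0.52 and 0.59 above that of all genes. Higher and lower calls numbered 55 and 9 without PGE2 (28.0% and 39.2% of genes), and 54 and 8 with it (27.0% and 37.7%). Both stimulation responses ranked the members alike, with Pearson's r of 0.975 over 77 members and 0.940 over 13999 genes, again as a description from separate samples.

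Other parts of mitochondrial gene expression were read beside the members, from lists written from general knowledge. PGE2 in unstimulated cells and stimulation without PGE2 share the unstimulated untreated samples. Their values are therefore given side by side and not as 2 independent results. Among all genes tested 15.5% were lower and 12.9% higher with PGE2, and 31.7% higher and 34.8% lower with stimulation. Proteins that transcribe mitochondrial DNA and process its RNA were 8 of 11 lower with PGE2 in unstimulated cells and 11 of 11 higher with stimulation without PGE2. Among them Elac2, which cuts the ends of mitochondrial tRNAs, fell by 0.78 (edgeR adjusted p = 2.01e-05) and rose by 1.59 on the log2 scale (adjusted p = 8.35e-08). Of 28 genes for assembly of the mitochondrial ribosome and modification of its RNA, 11 fell and 1 rose with PGE2, and 17 rose and 3 fell with stimulation. Mrm3, an RNA methyltransferase of the large subunit, fell by 1.22 and rose by 1.91, and Rcc1l fell by 0.82.

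Of 16 mitochondrial translation factors 6 were lower and 0 higher with PGE2, and 8 were higher and 2 lower with stimulation. The shares of all genes were 15.5% lower and 12.9% higher with PGE2, and 31.7% higher and 34.8% lower with stimulation. Of 20 mitochondrial aminoacyl-tRNA synthetases, which load tRNAs with amino acids, 9 were lower and 1 higher with PGE2, and with stimulation 3 were lower and 10 higher, the latter including Yars2 (1.41). Lrpprc, which stabilizes mitochondrial mRNAs, fell by 0.57 and rose by 1.12. Ears2, the glutamyl-tRNA synthetase, fell by 0.98, and it was the single gene of these lists to pass the interaction (0.74 ± 0.15, edgeR adjusted p = 0.0282). The 5 mitochondrial ribosomal proteins that carry other names counted 3 lower with PGE2, among them Ptcd3 (−0.48) and Chchd1 (−0.44), and 3 higher with stimulation.

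Nuclear genes for subunits of the respiratory chain and ATP synthase were 34 of 76 lower and 2 higher with PGE2 in unstimulated cells. Their median was −0.18, and the block gave 54 lower and 3 higher. With PGE2 the log2 difference was below 0 in 69 of 76 in unstimulated and 68 of 76 in stimulated cells. With stimulation 34 were higher and 6 lower. Among all genes 15.5% were lower and 12.9% higher with PGE2 (24.2% and 23.6% with the block), and 31.7% higher and 34.8% lower with stimulation. Atp5g1, of the membrane ring of ATP synthase, fell by 0.65 and rose by 1.03, while Ndufv3 of complex I rose by 0.23 and fell by 1.00 on the log2 scale. Few genes for proteins of the cytosolic ribosome passed. Of 82, 3 were lower with PGE2 (20 with the block) at a median of −0.08. The direction was still shared, with 74 of 82 below 0 with PGE2 in unstimulated and 78 of 82 in stimulated cells. Among the members it was 68 and 73 of 77, and among all genes 50.1% and 50.8%. A mostly downward direction with PGE2 was thus not particular to the members. With stimulation 16 of the 82 cytosolic genes were higher (36 with the block) at a median of 0.10, among them Rpl36al (1.29). With the block 24.2% of all genes were lower with PGE2, a share near the 20 of 82, and 34.8% were higher with stimulation. Messages encoded by mitochondrial DNA, the ones these ribosomes translate, were 3 of 13 lower with PGE2 (6 with the block; mt-Nd1 by 0.33 and mt-Nd2 by 0.31), and 0 were higher or lower with stimulation without PGE2 at a median of 0.01. The 2 mitochondrial ribosomal RNAs passed in neither of these comparisons. The libraries were made from poly(A) RNA, and the part of that selection in the level of mitochondrial transcripts was not tested. In stimulated cells PGE2 gave 0 lower respiratory chain genes (37 with the block) and 1 of 11 lower transcription and processing genes (8 with the block). The share of all genes that were lower there was 3.8%, and 20.7% with the block.

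**Figure D5:**
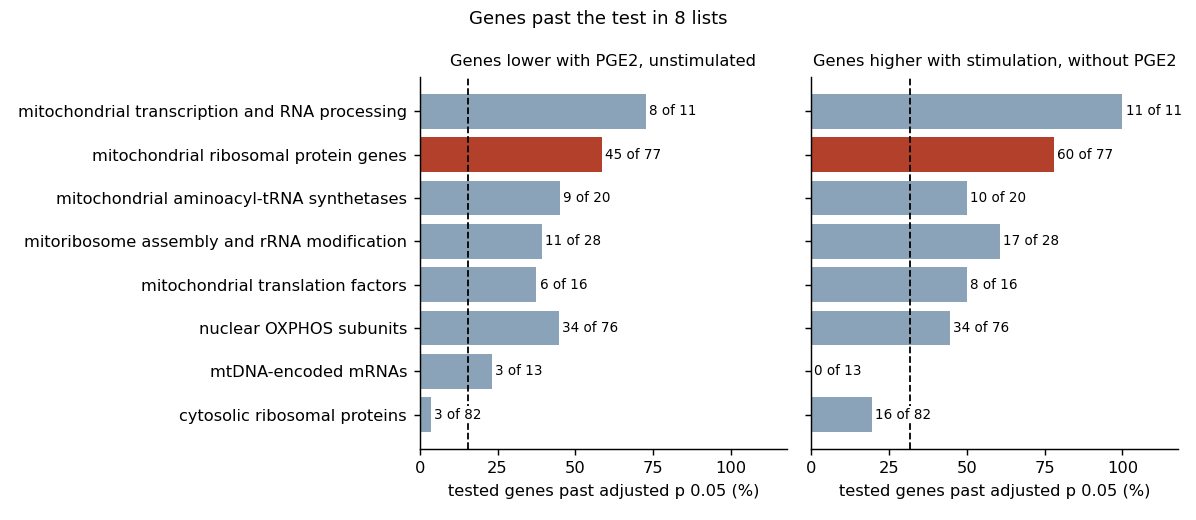
Share of tested genes (x axis, %) past an adjusted p of 0.05 in 8 gene lists, left as lower with PGE2 in unstimulated cells and right as higher with stimulation without PGE2, with counts beside the bars and a dashed line at the share of all genes tested (15.5% and 31.7%). The mitochondrial ribosomal protein genes (red, 45 and 60 of 77) lie above the line in both panels and the cytosolic ribosomal proteins (3 and 16 of 82) below it.

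Promoter sequence was compared because the members moved together. RefSeq windows on GRCm38.p6, each from 250 bases before to 50 after a start site, matched 69 of the 78 members by symbol. On either strand the ETS motif CCGGAAG was in windows of 26 of the 69 (37.7%, against 9.93% of 27025 genes and 21.6% of 9362 genes tested here), the YY1 core ATGGCGG in 13 (18.8%, 4.69% and 9.90%) and the NRF1 core GCGCATG in 8 (11.6%, 4.41% and 8.27%). The E-box CACGTG, bound by MYC and related factors, was in 5 (7.25%, 8.09% and 11.9%), and the SP1 motif GGGCGG in 34 (49.3%, 38.2% and 68.9%). A match shows these letters and not a binding site. Members with the ETS motif had a median log2 fold change with stimulation of 0.42 (25 tested, 16 higher) and those without it 0.58 (43 tested, 37 higher). With PGE2 at rest the medians were −0.21 and −0.24.

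Shown are 100 bases of the window of 4 members that rose with stimulation (Mrpl17, chr7:105811100-105811199, minus strand; Mrps2, chr2:28467966-28468065, plus strand; Mrps18b, chr17:35916441-35916540, minus strand; Mrps6, chr16:92058170-92058269, plus strand) and of 4 that fell (Mrpl58, chr11:115403652-115403751, Mrpl9, chr3:94443218-94443317, Mrpl14, chr17:45686222-45686321, and Mrpl34, chr8:71464826-71464925, all plus strand). Each stretch lies upstream of the gene as the count table places it and ends directly before it, except in Mrps18b and Mrpl34, where it ends farther upstream. They are written 5′ to 3′ along the gene, and capitals mark matches to the 5 motifs.
Mrpl17: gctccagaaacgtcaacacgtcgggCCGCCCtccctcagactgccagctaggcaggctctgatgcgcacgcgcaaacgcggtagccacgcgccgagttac
Mrps2: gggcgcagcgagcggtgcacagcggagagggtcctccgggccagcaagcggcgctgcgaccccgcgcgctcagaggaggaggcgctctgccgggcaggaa
Mrps18b: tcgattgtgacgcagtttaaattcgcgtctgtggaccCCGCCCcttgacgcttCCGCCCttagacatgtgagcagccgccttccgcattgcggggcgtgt
Mrps6: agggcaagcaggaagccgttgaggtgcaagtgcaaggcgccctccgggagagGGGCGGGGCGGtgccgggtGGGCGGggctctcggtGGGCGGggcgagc
Mrpl58: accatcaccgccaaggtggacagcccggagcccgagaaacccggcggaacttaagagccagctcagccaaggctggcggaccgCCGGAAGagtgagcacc
Mrpl9: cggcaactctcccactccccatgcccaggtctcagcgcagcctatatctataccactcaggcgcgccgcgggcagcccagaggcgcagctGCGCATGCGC
Mrpl14: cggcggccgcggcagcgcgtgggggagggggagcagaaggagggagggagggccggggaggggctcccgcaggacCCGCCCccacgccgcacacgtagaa
Mrpl34: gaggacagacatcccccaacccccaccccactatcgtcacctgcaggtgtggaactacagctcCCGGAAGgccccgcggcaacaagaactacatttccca
The SP1 letters are found 1 time in Mrpl17, 2 times in Mrps18b and 4 times in Mrps6, where 2 matches overlap, and 1 time in Mrpl14, which fell. Mrps2, which rose, holds none of the 5 motifs in its stretch. Mrpl58 and Mrpl34 hold the ETS letters 17 and 37 bases before the end of the stretch, and Mrpl9 ends in the NRF1 letters read on both strands.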

How the data were processed

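RNA-seq of 16 samples, 4 per group, was read from 2 deposited tables of all samples, 1 in which the authors gave raw read counts per gene and 1 in which they gave FPKM values. Submitters' processing notes name HISAT2 2.0.5, featureCounts 1.5.0-p3 and DESeq2 1.20.0. The build of the coordinates is GRCm38, and the strand setting of the counting is not given in the sources used here. The members and the gene lists were chosen with earlier results of these data known.

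The deposited counts of all genes were tested with edgeR 4.0.16 (quasi-likelihood test, TMM factors, low-count filter at a minimum count of 10) in R 4.3.3, with 8 samples per comparison and 16 for the interaction, and p-values were adjusted by Benjamini-Hochberg over all genes tested. A call is an adjusted p below 0.05. CPM used TMM factors of all 16 samples, and FPKM served to compare levels between genes. Total counts of 22678254 to 42950763 per sample set the counting precision. Replicates of a group differed by more than sampling noise (chi-square over degrees of freedom of 8.46 to 56.8), so none was counted as a duplicate.

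Named were the 5 largest rises and falls among members past the test in each pairwise comparison (fewer where fewer passed), the 3 smallest p-values of the interaction, the 5 highest and 5 lowest members by FPKM, 8 members with a known role, and, in each further list, genes only from among the 2 largest rises and 2 largest falls past the test. Mrpl4 with the block was named after its value was seen. Samples with the same replicate number deviated together in both PGE2 comparisons (correlations of 0.137 to 0.444 and 0.190 to 0.423) and in stimulation without PGE2 (0.112 to 0.359), so the fit with the number as a block is printed there where it changes a call. In the PGE2 comparison of stimulated cells 3 of 4 numbers correlated best with themselves. The pairing comes from these correlations, not from the labels.

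In simulated counts for the PGE2 comparison of unstimulated cells (14505 genes), 10% of genes changed by 1.25-fold were recovered, 54% at 1.5-fold, 68% at 2-fold and 96% at 4-fold. For PGE2 in stimulated cells these shares were 14%, 38%, 70% and 94%. For the interaction they were 2%, 34%, 66% and 90%. At each fold 50 genes drawn from all tested genes were changed. In the real comparison of PGE2 in unstimulated cells 2253 genes were called lower and 1869 higher. The median SE there was 0.070 for the members and 0.103 for all genes. The recovered shares thus hold for the simulated setting, and recovery of the members was not measured. Alternatives were DESeq2 1.42.0, limma 3.58.1 on log2(FPKM + 1) and log2(FPKM + 0.1), other factors, filters and samples, and each replicate left out.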

Additional observations from a re-analysis of the deposited data

Results flagged for a closer look

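In 5 of 120 groups of 4 samples, formed by 29 members and their summed level in the 4 groups, 1 sample stood apart from the other 3. Chance marks about 1 in 20 groups. All 5 were samples of replicate 1. In unstimulated cells with PGE2, Mrpl33 was at 28.6 CPM in replicate 1 and at 35.6 to 36.4 CPM in the others, and Mrps21 was at 33.5 CPM with the others at 38.2 to 38.5 CPM. In unstimulated untreated cells, Mrpl42 was at 33.0 CPM with the others at 37.2 to 37.4 CPM, and Mrpl9 was at 130.6 CPM with the others at 110.4 to 111.9 CPM. In stimulated untreated cells, Mrps18a was at 57.7 CPM and the others at 48.0 to 48.9 CPM.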

How the results depend on the processing

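With a fold change of at least 2 added to the rule, PGE2 gave 1 lower member in unstimulated and 0 in stimulated cells, and stimulation gave 11 higher and 0 lower without PGE2 and 16 higher and 0 lower with it. For PGE2 in stimulated cells the 4 lower calls became 11 with DESeq2 (7.01% of all genes) and 20 in 1 fit of all 16 samples (6.14%). They became 0 with limma on log2(FPKM + 1) without a filter (0.957%) and 0 to 10 with 1 replicate left out (1.62% to 4.72%). For PGE2 in unstimulated cells leaving out 1 replicate gave 30 to 45 lower and 0 to 1 higher members. The shares of all genes were then 11.1% to 15.0% lower and 9.73% to 12.8% higher. Stimulation with PGE2 had 8 lower members with upper-quartile factors. The interaction had 1 higher member with DESeq2 and 0 to 3 with 1 replicate left out.

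With replicate numbers as a block, PGE2 gave 58 lower and 2 higher members in unstimulated and 50 lower and 1 higher in stimulated cells, and stimulation without PGE2 gave 60 higher and 7 lower. For stimulation with PGE2 the numbers did not correlate enough in every pair (0.0439 to 0.281, with 3 of 4 samples best with their own number), and the block gave 60 higher and 4 lower (33.9% and 33.6% of genes). The interaction with the block called 3 members higher (1.79% of genes), Mrps18b (0.71), Mrpl36 (0.50) and Mrpl19 (0.46).

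Values that changed sign were near 0 and did not pass in any fit. For PGE2 in unstimulated cells 1 fit of all 16 samples gave −0.012 for Mrpl10, −0.014 for Mrpl45 and −0.015 for Mrpl58, and with 1 replicate left out Mrpl10 ranged from −0.0049 to 0.027, Mrpl45 from −0.062 to 0.086 and Mrpl58 from −0.056 to 0.056. For PGE2 in stimulated cells Mrpl45 was at −0.0033 with DESeq2, −0.0035 with RLE factors, −0.0039 with limma on log2(FPKM + 1) with and without a filter, −0.0040 with log2(FPKM + 0.1) and −0.0016 in 1 fit of all samples, and Mrpl10 was at 0.0058 with upper-quartile factors. With 1 replicate left out Mrpl45 ranged from −0.042 to 0.059, Mrpl10 from −0.036 to 0.014 and Mrps18c from −0.062 to 0.033. Mrpl45 ranged from −0.13 to 0.00057 for stimulation without PGE2 and from −0.13 to 0.033 with it, where Mrps18c was at −0.036 with upper-quartile factors. The cause of these changes was not tested.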
